A study of Mus musculus with 2 samples.

Results

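The 9 genes examined here belong to the coagulation and plasminogen systems and were chosen by name: F3, F7, F10, F13a1, Procr, Thbs1, Plau, Plaur and Serpinb2. All 9 were found among the 23444 gene symbols of the deposited tables, and all 9 had at least 1 FPKM in both libraries. FPKM counts fragments relative to transcript length and sequencing depth, so levels of genes of different length can be set side by side, while differences between libraries also depend on scaling. RNA came from macrophages derived in culture from bone marrow of FVB mice, an inbred strain. There were 2 libraries, 1 from cells labelled RON TK-/- (RON deficient) and 1 from cells labelled WT (RON proficient), and both labels state 72 hours with 10 ng/mL of recombinant interleukin-4. RON is the receptor tyrosine kinase encoded by Mst1r. The number of animals or cultures behind each library was not stated in the labels. The comparison asks how transcript levels differ between interleukin-4 treated macrophages without and with the RON kinase. With 1 library per group there was no replicate and no test, so every difference below compares these 2 libraries and not the conditions.

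Clotting starts when tissue factor, the membrane protein encoded by F3, binds factor VII. The complex activates factor X, which then converts prothrombin to thrombin, and factor XIII cross-links the fibrin that thrombin makes. The endothelial protein C receptor, encoded by Procr, acts on the opposite side by helping to activate the anticoagulant protein C. Fibrin is removed by plasmin. The urokinase Plau makes plasmin from plasminogen at the cell surface while bound to its receptor Plaur, and the serpin Serpinb2, also called PAI-2, can inhibit urokinase. Most circulating clotting factors are made by hepatocytes, but macrophages and monocytes are known to make tissue factor, factor XIII A chain, urokinase and its receptor.

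The coverage column implied about 67100000 reads for the RON TK-/- labelled library and about 59700000 for the WT labelled library. Mst1r was listed at 0 FPKM in both libraries, where 3 reads would have given 0.0095 FPKM in the RON TK-/- labelled library and 0.0107 FPKM in the WT labelled library, so it checked neither label. Of the interleukin-4 markers, Arg1 had 5041 FPKM in the RON TK-/- labelled library and 1.0 FPKM in the WT labelled library. Chil3 and Retnla had 4604 and 3665 FPKM in the RON TK-/- labelled library and were listed at 0 in the WT labelled library, and Mrc1 had 1016 FPKM in the RON TK-/- labelled library and 71.2 FPKM in the WT labelled library. The inflammatory genes ran the other way, Tnf with 0.525 and 1262 FPKM, Nos2 with 3.63 and 1099.7 FPKM and Il1b with 0.199 and 823 FPKM in the same order. The WT labelled library thus had 3 of these 4 markers of the treatment on its label at or near 0 and the 3 inflammatory genes high, and all directions given here hold only if the labels are right. All 7 macrophage markers had at least 1 FPKM in both libraries. Fibroblast markers were also present, with 5 of 6 at 1 FPKM or more in each library and a summed level of 892 FPKM in the RON TK-/- labelled library and 669 FPKM in the WT labelled library, led by Col1a2 (433 and 407 FPKM) and Col1a1 (250 and 195 FPKM). Col3a1 (171 and 48.5 FPKM) and Pdgfra (24.3 and 8.93 FPKM) were over 2-fold higher in the RON TK-/- labelled library. Of the 6 platelet and megakaryocyte markers only Pf4 (28.7 and 45.9 FPKM) was above 1 FPKM, and Gp9 and Gp6 were at 0. None of the markers of hepatocytes, mast cells and basophils, dendritic cells, B cells and erythroid cells reached 1 FPKM, and of the neutrophil and T cell markers found only S100a8 (1.75 and 1.44 FPKM) and Lck (0.340 and 3.96 FPKM) did in a library. In bulk RNA, fewer cells of a type and less RNA per cell cannot be told apart, and the part of other cell types in the results below was not tested.

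Tissue factor and the surface urokinase system were lower in the RON TK-/- labelled library, and the clotting proteases F7 and F10 were higher. On the scale of log2(FPKM + 1), 6 of the 9 genes were lower by 2-fold or more in the RON TK-/- labelled library, where 8.71% of the 11288 detected genes were that much lower. The other 2 that differed, F7 and F10, were at least 2-fold higher, a share of 22.2% that is close to the 25.6% of detected genes that were at least 2-fold higher. F13a1 was within 2-fold. Detected genes are those with at least 1 FPKM in either library, and their median log2 ratio was 0.57, so the split of all genes depended on scaling: higher genes made up 74.6% of those 2-fold apart as deposited and 37.8% after rescaling to a median ratio of 0. Relative to the median gene, 2 of the 9 genes were 2-fold higher and 6 lower, beside 8.38% and 14.4% of detected genes. They were chosen with earlier results of these data known, so these counts describe the genes and do not support a statement about the system as a whole.

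The 9 genes summed to 268 FPKM in the RON TK-/- labelled library and 661 FPKM in the WT labelled library, and their order differed. From high to low it was F10, Thbs1, F7, Serpinb2, Plaur, Plau, Procr, F3 and F13a1 in the RON TK-/- labelled library. In the WT labelled library it was Thbs1, Plaur, Serpinb2, F3, Plau, Procr, F10, F7 and F13a1. F7, Serpinb2 and Plaur lay between 33.3 and 33.8 FPKM in the RON TK-/- labelled library, and no replicate gives a spread against which to order them.

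**Figure D1:**
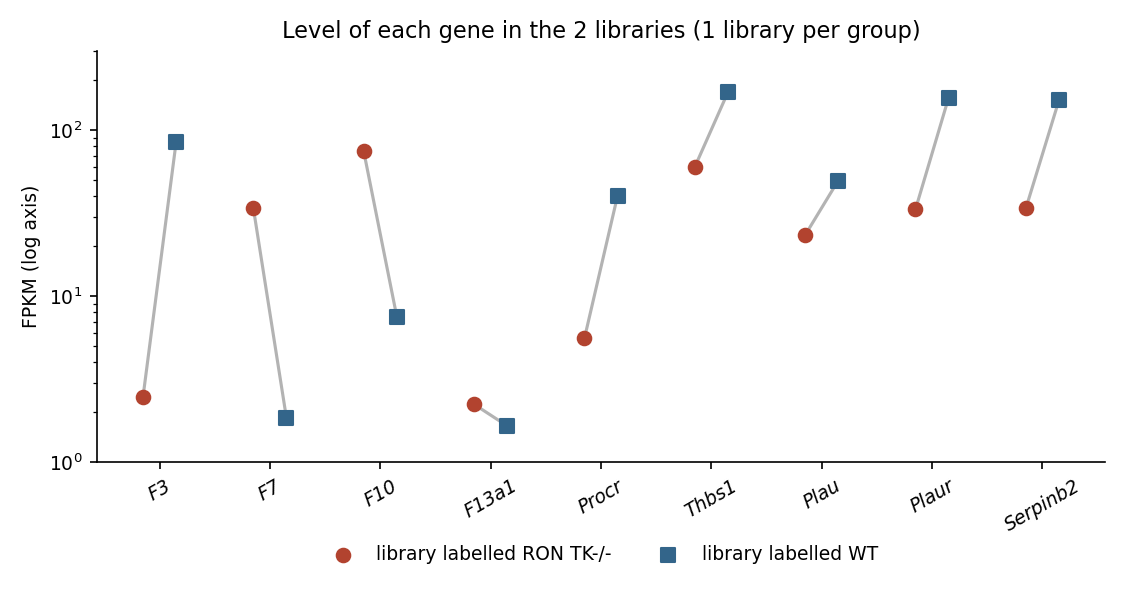
FPKM of each of the 9 genes on a log axis, with circles for the RON TK-/- labelled library and squares for the WT labelled library, 1 library each and so without error bars. F7 and F10 stand higher in the RON TK-/- labelled library, F13a1 lies near 2 FPKM in both, and the other 6 genes stand lower in the RON TK-/- labelled library.

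F3, which encodes tissue factor, showed the widest difference of the 9. It had 2.46 FPKM in the RON TK-/- labelled library and 84.4 FPKM in the WT labelled library, 34.2-fold lower as a plain ratio of FPKM and -4.62 on the log2(FPKM + 1) scale. About 304 reads stood behind the lower value (exact 95% Poisson interval 271 to 341) and about 9541 behind the higher one (9351 to 9734), intervals that cover counting error only. By level, F3 ranked 9585 among all genes in the RON TK-/- labelled library and 863 in the WT labelled library. Of all detected genes 0.842% had a lower ratio. F3 has a single listed transcript of 1876 bases and 6 exons at chr3:121723537-121735052 (mm10).

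F7, which encodes the protease that tissue factor binds, ran the other way. It had 33.8 FPKM in the RON TK-/- labelled library and 1.84 FPKM in the WT labelled library, a log2 ratio of 3.62 and an 18.4-fold higher level as a plain ratio. About 4256 reads stood behind the value of the RON TK-/- labelled library and about 208 (181 to 238) behind that of the WT labelled library. Of all detected genes 99.6% had a lower ratio. Within a library, F7 was 13.7 times as abundant as F3 per length in the RON TK-/- labelled library, and F3 was 45.9 times as abundant as F7 in the WT labelled library. Messages for the receptor and for its protease were thus each present in both libraries, in opposite order.

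F10, which encodes the protease that the tissue factor complex activates, had 74.4 FPKM in the RON TK-/- labelled library and 7.497 FPKM in the WT labelled library, a log2 ratio of 3.15. It was the most abundant of the 9 genes in the RON TK-/- labelled library, where it made up 27.7% of their summed FPKM, against 1.13% in the WT labelled library. Its level was 2.20 times that of F7 in the RON TK-/- labelled library and 4.08 times in the WT labelled library. The files list 2 transcripts of F10 that differ by 190 bases in length and, in the GENCODE models matched to them, by 36 coding bases and in where exon 2 begins. The longer, NM_001242368, held 94.1% of F10 FPKM in the RON TK-/- labelled library and nearly all of it in the WT labelled library. The shorter, NM_007972, had 4.42 FPKM (about 747 reads) in the RON TK-/- labelled library and under 0.001 FPKM in the WT labelled library. Reads are divided between transcripts by a model in the authors' processing, so these shares are estimates.

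F7 and F10 are neighbours in the same orientation on chromosome 8, at chr8:13026034-13035809 and chr8:13037308-13056676, with 1498 bases between them. The gene before F7 in the files, Mcf2l, which encodes an exchange factor for small GTPases, ends 5524 bases before F7 and was named after its value was seen. It had 25.8 FPKM in the RON TK-/- labelled library and 1.07 FPKM in the WT labelled library, a log2 ratio of 3.70. The gene after F10, Proz, which encodes the vitamin K-dependent protein Z, had 1.35 FPKM in the RON TK-/- labelled library and 0.615 FPKM in the WT labelled library, a log2 ratio of 0.54 that is close to the median of all detected genes. The next gene, Pcid2, had 15.99 and 8.73 FPKM in the same order. The 3 adjacent genes Mcf2l, F7 and F10 were thus each over 3 log2 units higher in the RON TK-/- labelled library. The 2 that follow were within 2-fold on the log2(FPKM + 1) scale, though Proz was 2.19-fold higher as a plain ratio. Proz lay close to the minimum for detection, so its ratio is uncertain. On the other side, the gene before Mcf2l, Atp11a, had 14.4 FPKM in the RON TK-/- labelled library and 32.0 FPKM in the WT labelled library, a log2 ratio of -1.10, and was also named after its value was seen.

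The bases before the annotated starts of F3, F7 and F10 are shown because these genes of the same reaction differed in opposite directions. The sequences are from RefSeq (GRCm38.p6), run 5′ to 3′ in the direction of the gene over 250 bases up to the start, and carry matches to TGANTCA, the AP-1 motif, and to TATAAA in capitals.
F3, chr3:121723287-121723536, + strand: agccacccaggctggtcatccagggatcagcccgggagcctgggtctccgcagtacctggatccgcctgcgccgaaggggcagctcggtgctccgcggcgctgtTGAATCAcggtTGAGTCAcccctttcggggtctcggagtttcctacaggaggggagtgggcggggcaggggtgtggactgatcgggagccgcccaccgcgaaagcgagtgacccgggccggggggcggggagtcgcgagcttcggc
F7, chr8:13025784-13026033, + strand: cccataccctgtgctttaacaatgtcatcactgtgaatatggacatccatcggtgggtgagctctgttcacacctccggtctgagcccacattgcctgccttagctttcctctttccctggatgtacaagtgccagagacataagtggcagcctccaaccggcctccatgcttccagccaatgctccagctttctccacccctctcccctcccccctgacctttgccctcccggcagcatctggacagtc
F10, chr8:13037058-13037307, + strand: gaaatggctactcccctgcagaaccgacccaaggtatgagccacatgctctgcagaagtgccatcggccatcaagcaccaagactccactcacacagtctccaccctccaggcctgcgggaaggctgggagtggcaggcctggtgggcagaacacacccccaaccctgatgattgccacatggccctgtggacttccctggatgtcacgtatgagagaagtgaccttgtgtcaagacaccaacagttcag
The F3 window held 2 AP-1 matches, which begin 146 and 135 bases before the start, and was 70.0% G and C with 24 CG pairs, where all windows had medians of 52.4% and 6 pairs over these 250 bases. The F7 and F10 windows held 4 CG pairs each and no match to either motif.

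F13a1 encodes the catalytic A chain of factor XIII. It had 2.23 FPKM in the RON TK-/- labelled library (about 586 reads, 540 to 636) and 1.65 FPKM in the WT labelled library (about 365 reads, 328 to 404). The log2 ratio was 0.28, below the median of all genes, and turned to -0.14 after rescaling to a median ratio of 0. It was the least abundant of the 9 genes in both libraries. At least 99.9% of its FPKM was assigned to NM_028784, 1 of 2 transcripts that differ in their first exon. An annotated antisense gene, Gm30489, overlaps 74 exon bases of F13a1, and strand use was not stated in the labels or files.

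Procr encodes the endothelial protein C receptor. It had 5.55 FPKM in the RON TK-/- labelled library (about 561 reads, 516 to 610) and 40.1 FPKM in the WT labelled library (about 3546 reads), a log2 ratio of -2.65 and 7.22-fold lower as a plain ratio. Of the 6 endothelial markers 3 had at least 1 FPKM in the RON TK-/- labelled library and 2 in the WT labelled library, and their summed levels were 43.2 and 12.04 FPKM, the larger part being Vwf in the RON TK-/- labelled library and Kdr in the WT labelled library. Vwf had 38.6 and 4.22 FPKM and Kdr 1.72 and 6.54 FPKM in the same order. Cdh5 and Tek were below 0.5 FPKM in both libraries, and Pecam1 had 2.53 FPKM in the RON TK-/- labelled library and 0.527 FPKM in the WT labelled library. F3 and Procr, which favour and restrain thrombin, were both lower. Procr was 2.25 times as abundant as F3 in the RON TK-/- labelled library, while F3 was 2.10 times as abundant as Procr in the WT labelled library.

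Thbs1 encodes thrombospondin 1, a matrix glycoprotein of platelet granules and activated cells. It had 59.8 FPKM in the RON TK-/- labelled library and 168 FPKM in the WT labelled library, a log2 ratio of -1.48. Among the 9 genes it stood next below F10 in the RON TK-/- labelled library and highest in the WT labelled library. About 22865 and 57387 reads stood behind these values, the most of any of the 9. The annotated gene Gm29233 overlaps 208 of its exon bases on the opposite strand.

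The urokinase Plau differed least of the 6 lower genes. It had 23.3 FPKM in the RON TK-/- labelled library and 49.6 FPKM in the WT labelled library, a log2 ratio of -1.06 that passed 2-fold narrowly and was -0.95 with a pseudocount of 5. Its ratio was -1.63 relative to the median gene. Plaur, the urokinase receptor, had 33.3 FPKM in the RON TK-/- labelled library and 156 FPKM in the WT labelled library, a log2 ratio of -2.20. The receptor message was 1.43 times as abundant as that of its protease in the RON TK-/- labelled library and 3.15 times in the WT labelled library.

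Serpinb2, the inhibitor, had 33.7 FPKM in the RON TK-/- labelled library and 151 FPKM in the WT labelled library, a log2 ratio of -2.13. Its level stood close to that of Plaur in each library, and its ratio to Plau was 1.45 in the RON TK-/- labelled library and 3.04 in the WT labelled library. The 3 genes of the urokinase axis were thus all lower in the RON TK-/- labelled library, with protease message lower by less than receptor and inhibitor message. The 2 listed transcripts of Serpinb2 begin 87 bases apart in different first exons and have coding parts of equal length. The transcript with the upstream start, NM_001174170, held 50.1% of Serpinb2 FPKM in the RON TK-/- labelled library (16.9 FPKM) and 71.8% in the WT labelled library (108 FPKM). The downstream one, NM_011111, had 16.8 FPKM and 42.5 FPKM in the same order. Both were lower, and the estimated share of the upstream start was lower too. Exons of Serpinb10 overlap 291 exon bases of Serpinb2 on the same strand, and Serpinb10 had 0.0229 FPKM in the RON TK-/- labelled library and 0.0247 FPKM in the WT labelled library.

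**Figure D2:**
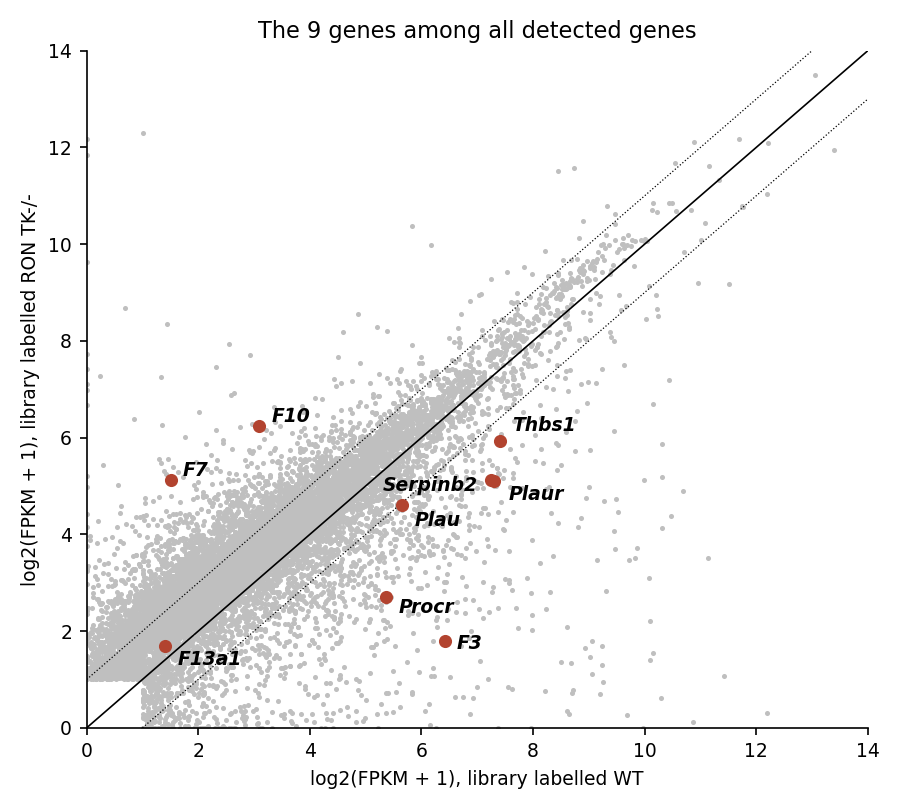
Level of every gene with at least 1 FPKM in either library, as log2(FPKM + 1), with the RON TK-/- labelled library on the vertical axis and the WT labelled library on the horizontal axis. The solid line marks equal levels and the dotted lines 2-fold differences on that scale. F7 and F10 lie above the upper dotted line and F13a1 between the lines. Plau lies just below the lower line, and F3 farthest below that line among the 9 named genes.

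Promoter windows of Procr, Plaur and the upstream start of Serpinb2 are shown beside those of F3, since these genes were lower together in the RON TK-/- labelled library. Capitals again mark TGANTCA and TATAAA.
Procr, chr2:155750967-155751216, + strand: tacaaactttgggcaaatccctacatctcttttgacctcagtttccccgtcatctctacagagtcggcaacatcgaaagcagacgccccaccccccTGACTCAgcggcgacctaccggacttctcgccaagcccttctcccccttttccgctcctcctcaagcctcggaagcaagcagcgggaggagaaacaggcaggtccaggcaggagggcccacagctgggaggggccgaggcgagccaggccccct
Plaur, chr7:24462233-24462482, + strand: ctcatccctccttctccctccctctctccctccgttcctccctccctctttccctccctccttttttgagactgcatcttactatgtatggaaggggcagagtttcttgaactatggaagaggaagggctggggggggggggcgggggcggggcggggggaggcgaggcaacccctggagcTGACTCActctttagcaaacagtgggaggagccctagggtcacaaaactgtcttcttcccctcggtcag
Serpinb2, chr1:107511173-107511422, + strand: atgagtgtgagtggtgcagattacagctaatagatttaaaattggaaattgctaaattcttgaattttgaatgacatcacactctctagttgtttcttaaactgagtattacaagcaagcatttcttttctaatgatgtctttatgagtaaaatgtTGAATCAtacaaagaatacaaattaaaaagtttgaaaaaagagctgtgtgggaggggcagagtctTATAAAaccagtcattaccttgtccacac
Of the 9 genes, 7 had a window in the RefSeq table, which runs from 250 bases before to 50 after the start, and F13a1 and Serpinb2 had 2 windows each. Plau and Thbs1 had none. The window of Plaur starts from an annotation 17 bases upstream of the start in the files. AP-1 letters occurred in the windows of F3, Procr, Plaur and Serpinb2, each of which was lower in the RON TK-/- labelled library, and in none of F7, F10 and F13a1. Of all 32851 windows 7.81% held them, and windows of other lower genes were not read apart. The match began 154 bases before the start in Procr, 69 in Plaur and 94 in Serpinb2, whose 2 windows overlap and share that match. TATAAA occurred in the windows of F3 and Serpinb2, and 13.6% of all windows held it on either strand. In Serpinb2 it lay before the start, at 29 bases from the upstream start. In F3 it lay on the opposite strand, from 43 bases after the start, and so outside the bases shown. A match is a description of the letters and not a site.

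The other motifs were searched on both strands in the same windows. GGGCGG, the SP1 motif, occurred in F3 and Plaur (35.7% of all windows), with 3 matches in Plaur, 2 of which share a base. AGGAAG, the PU.1/ETS core, occurred in F13a1 and Plaur (35.4%), and CAGCTG, an E box, in F13a1 and Procr (16.3%). The STAT motif TTCNNNGAA occurred in both Serpinb2 windows (8.30%). No window of the 7 genes held TGACGT, the CRE core (7.51%), or TTC and GAA with 4 bases between them, the STAT6 motif (6.95%). Nor did any hold the NF-kB motif (4.51%), which was searched by a strict consensus. Related letters that depart from that consensus, in F3 or elsewhere, were not counted. No motif searched occurred in the windows of F7 and F10.

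**Figure D3:**
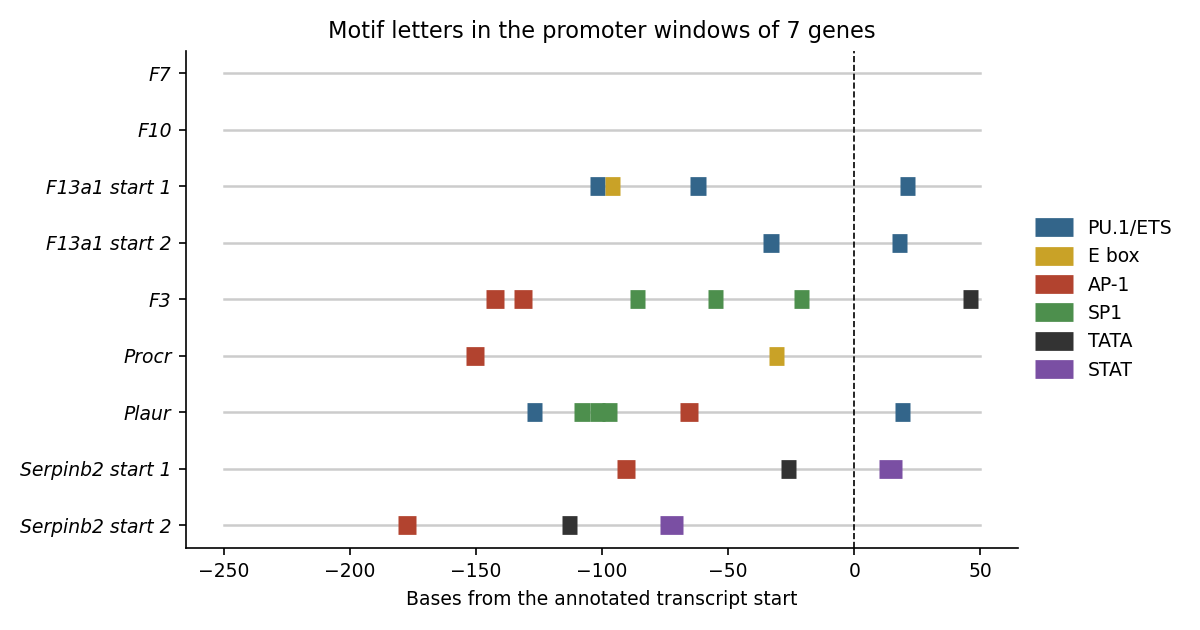
Position of motif letters in the RefSeq promoter windows of 7 of the genes, in bases from the annotated transcript start (dashed line), with 1 line per window. AP-1 letters (red) lie before the start in F3, Procr, Plaur and both windows of Serpinb2, and the lines of F7 and F10 carry no match.

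Genes with levels most like those of each member were found by distance in log2(FPKM + 1) over the 2 libraries. Nearest to F3 were Upp1 (2.47 FPKM in the RON TK-/- labelled library and 88.4 FPKM in the WT labelled library), Cd86 and Itga4, at distances of 0.067 to 0.21. Nearest to F7 were Clec4a3 (36.8 and 1.67 FPKM), Cebpa and Cxcr4, at 0.15 to 0.22. Nearest to F10 were Sec14l1 (77.0 and 6.79 FPKM), Wdfy2 and Igf1, at 0.13 to 0.25. Plaur and Serpinb2 had the same 3 nearest genes, Itga5, Gna13 and Lyn, at 0.082 to 0.15. Procr had Mllt6, Rel and Fzd1, Thbs1 had Psmb8, Klf6 and Ly6e, and Plau had Tm6sf1, Ptpn2 and Pxn. With 2 libraries such likeness rests on 2 values per gene.

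The wider system was read from 9 lists of 74 genes outside the members, of which 40 were detected. Of these, 13 (2-fold or more) were higher and 3 lower in the RON TK-/- labelled library. Among all detected genes 25.6% were that much higher and 8.71% lower, and the counts of each list below stand beside these same shares. Their median log2 ratio was 0.59, beside 0.57 for all detected genes. After rescaling to a median ratio of 0 the counts were 7 and 6, beside 950 and 1564 of the 11288 detected genes. With the median ratio subtracted instead, the counts were 8 and 5, beside 8.38% and 14.4% of detected genes. The lower genes were Itga5, Itgav and Thbs2.

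Among the other coagulation factors 3 of 13 genes were detected, 1 was 2-fold higher and none lower. Vwf, which encodes the platelet-binding von Willebrand factor, had 38.6 FPKM in the RON TK-/- labelled library and 4.22 FPKM in the WT labelled library, a log2 ratio of 2.92. F5, the cofactor of activated factor X, had 4.99 and 2.38 FPKM, and the kininogen gene Kng1 had 2.71 and 3.40 FPKM, both within 2-fold on the log2(FPKM + 1) scale. Prothrombin (F2), F11, F12, F13b, Fgb and Fgg were listed at 0 in both libraries. Fga had 0 FPKM in the RON TK-/- labelled library and 0.684 FPKM in the WT labelled library, under the minimum for detection. Messages detected here, the members included, were thus those of F3, F7, F10, F5, F13a1, Kng1 and Vwf. Those of prothrombin and of the 3 fibrinogen chains were not detected.

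Among the anticoagulant proteins 6 of 12 genes were detected, 2 were 2-fold higher and none lower, with a median log2 ratio of 0.50. Thbd, which encodes thrombomodulin and works with the receptor encoded by Procr, had 21.4 FPKM in the RON TK-/- labelled library and 5.55 FPKM in the WT labelled library, a log2 ratio of 1.77. It differed in the opposite direction from Procr. Tfpi2, an inhibitor of plasmin and other serine proteases, had 4.17 and 0.712 FPKM in the same order. Pros1, the cofactor of protein C, had 35.2 and 25.4 FPKM. Tfpi, the inhibitor of the tissue factor complex, had 22.3 FPKM in the RON TK-/- labelled library and 21.6 FPKM in the WT labelled library, and was named after its value was seen. Tfpi therefore stood above F3 in the RON TK-/- labelled library and below it in the WT labelled library.

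All 5 genes of the vitamin K cycle and factor secretion were detected. Vkorc1, the epoxide reductase that recycles vitamin K, had 97.6 FPKM in the RON TK-/- labelled library and 45.8 FPKM in the WT labelled library, and Mcfd2, which helps to carry factors V and VIII out of the endoplasmic reticulum, had 76.4 and 37.5 FPKM. These 2 were just past 2-fold as deposited and none was after rescaling relative to the median gene. Vkorc1l1, a relative of Vkorc1, had 11.6 and 5.50 FPKM, and Lman1, the partner of Mcfd2 in this transport, had 48.5 and 25.6 FPKM, both within 2-fold on the log2(FPKM + 1) scale. The list median was 0.96. Of the 4 protease-activated receptors only F2r, the thrombin receptor PAR1, was detected, with 6.42 and 4.96 FPKM.

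On the plasminogen side, 2 of the 6 genes read for plasminogen, the tissue-type activator and inhibitors were detected, and both were within 2-fold. Serpine2, an inhibitor of thrombin and urokinase, had 25.7 FPKM in the RON TK-/- labelled library and 15.05 FPKM in the WT labelled library, and Plat, the tissue-type activator, 3.08 FPKM and 4.17 FPKM in the same order. Plg, which encodes plasminogen, was listed at 0 in both libraries. Among the 4 plasminogen binding proteins 1 was 2-fold higher, Anxa2 with 821 and 372 FPKM, and none lower, and after rescaling to a median ratio of 0 none was 2-fold higher. Its partner S100a10 had 388 and 371 FPKM, Plgrkt had 54.2 and 34.5 FPKM, and Eno1 had 675 and 346 FPKM.

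Integrins and uptake receptors that work with the urokinase receptor differed in both directions. Of 9 detected genes of 11, 2 were 2-fold higher and 2 lower. After rescaling to a median ratio of 0, 1 was higher and 4 lower, and the median log2 ratio of 0.08 turned to -0.57. With the median ratio of all detected genes subtracted instead, 2 were higher and 3 lower. The integrin chain gene Itgb3 had 26.5 FPKM in the RON TK-/- labelled library and 3.93 FPKM in the WT labelled library, and Itgam had 185 and 61.0 FPKM. The fibronectin receptor chain Itga5 had 32.1 FPKM in the RON TK-/- labelled library and 163 FPKM in the WT labelled library, and Itgav, which pairs with Itgb3, had 19.99 and 55.6 FPKM. The uptake receptor Lrp1, which clears urokinase bound to its inhibitor, had 115 and 109 FPKM and was named after its value was seen.

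Of the thrombospondins and their receptors 4 of 6 were detected. Thbs2 was lower like Thbs1, with 8.89 FPKM in the RON TK-/- labelled library and 21.8 FPKM in the WT labelled library. The receptor Cd36 was higher, with 376 and 104 FPKM, and the receptor Cd47 had 92.8 and 109 FPKM. Thbs4 had 0.659 and 1.04 FPKM in the same order, close to the minimum for detection.

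Of the 13 clade B serpins other than Serpinb2, 6 were detected, 4 were 2-fold higher and none lower, with a median log2 ratio of 1.36. After rescaling to a median ratio of 0, 2 were higher and 1, Serpinb9, was lower, and the median was 0.76. Serpinb1a, an inhibitor of neutrophil proteases, had 46.1 FPKM in the RON TK-/- labelled library and 1.75 FPKM in the WT labelled library, a log2 ratio of 4.10. Serpinb9b had 10.7 and 2.61 FPKM, Serpinb8 5.44 and 1.26 FPKM, and Serpinb6a 447 and 193 FPKM. The other 2 were Serpinb9, with 6.05 and 9.70 FPKM, and Serpinb6b, with 4.45 and 5.93 FPKM, both named after their values were seen. Serpinb8 lies in the same cluster on chromosome 1 as Serpinb2, where Serpinb7, Serpinb10 and Serpinb11 were below 0.1 FPKM in both libraries. The clade B serpins include near-identical copies that can trade reads, which makes their individual values uncertain.

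**Figure D4:**
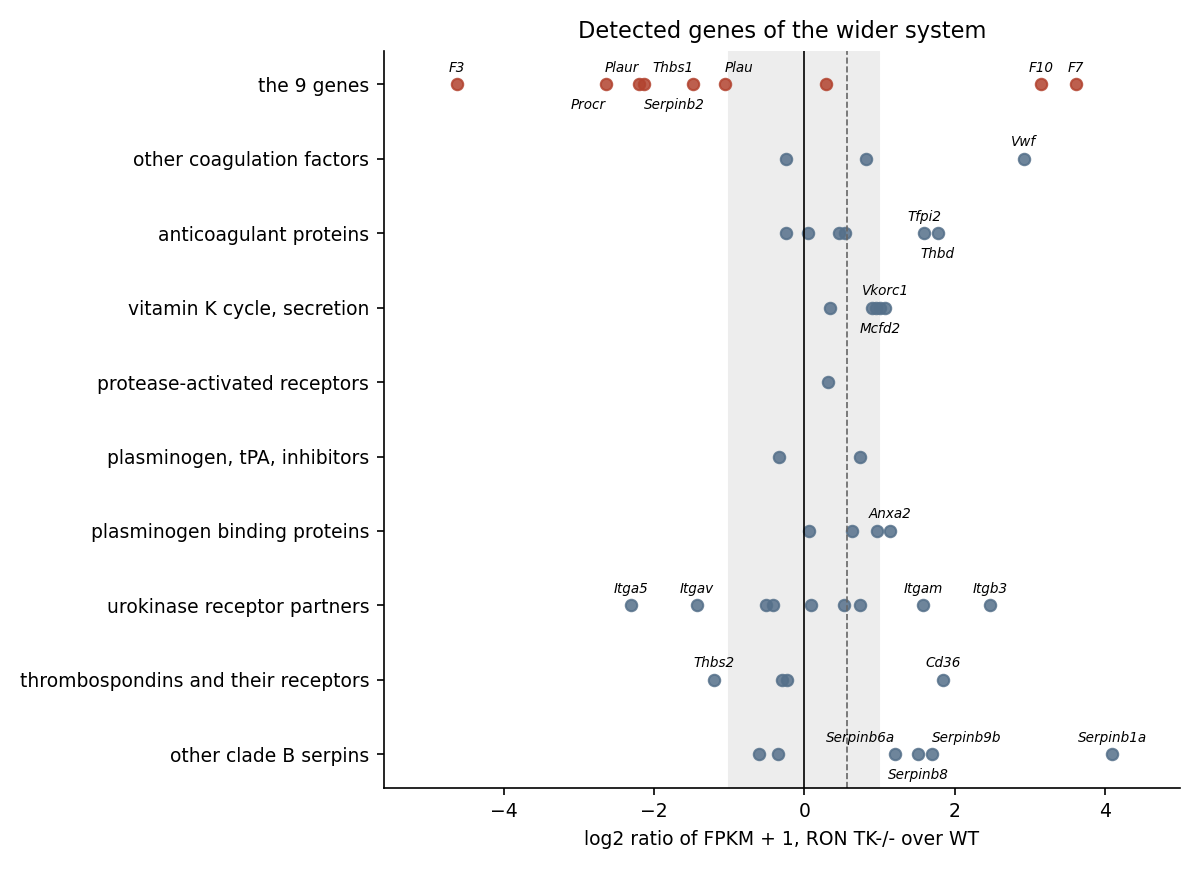
Log2 ratio of FPKM + 1, the RON TK-/- labelled library over the WT labelled library, for the 9 genes (top, red) and for the detected genes of 9 lists, 1 point per gene. The grey band marks ratios within 2-fold, the dashed line the median of all detected genes at 0.57, and genes outside the band are named. F3 lies farthest to the left and Serpinb1a and F7 farthest to the right.

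**Figure D5:**
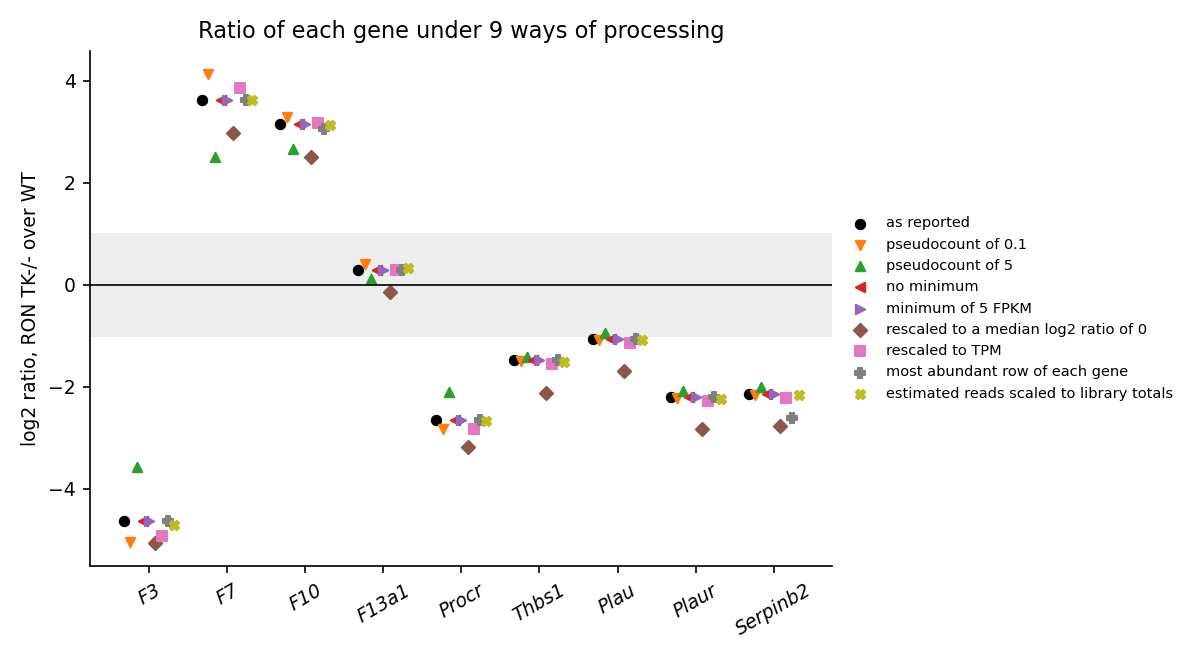
Log2 ratio of each of the 9 genes under 9 ways of processing, the RON TK-/- labelled library over the WT labelled library, with the grey band marking ratios within 2-fold. All 8 genes outside the band as reported keep their sign, Plau enters the band with a pseudocount of 5, and F13a1 lies on either side of 0.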

How the data were processed

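The 2 libraries were made from total RNA isolated with TRIZOL, with a TruSeq RNA kit and single reads of 50 bases, per the labels' protocols. Each table deposited by the authors gives FPKM per RefSeq transcript and the coverage signal, the mean read depth per base, in columns named as Cufflinks names them, per the file headers. Build mm10 and DESeq appear, without a role, in the submitters' processing notes. The aligner was not stated in the labels or files. Rows of a gene symbol were summed, and the ratio was log2 of (FPKM + 1) over (FPKM + 1), with detection at 1 FPKM in either library. Reads were estimated as coverage times length over read length, with exact 95% Poisson intervals, and no count model was used. Locus starts in the files count from 0 and are given here counting from 1. Exons came from GENCODE M21 and promoters from RefSeq, both GRCm38. Python 3.11.15, numpy 2.4.6, pandas 2.3.3, scipy 1.17.1 and matplotlib 3.10.9 were used. The ratio was tested on simulated data, with folds planted on the levels of the WT labelled library and counting error only. Such data hold no variation between cultures or libraries, so the test does not bear on it.

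The members and lists were chosen with earlier results of these data known. A list gene that cannot be given is not reported here and is in no list count. Genes named were the 9 members, Mst1r, activation markers, the 4 detected genes per list farthest from a ratio of 0 (fewer where fewer were detected) and the 3 nearest genes of each member with at least 5 FPKM, apart from those said to be named after their values were seen. Also named, outside that rule, were cell type markers, list genes below the minimum for detection and annotated genes that overlap or lie beside a member. Alternatives were other pseudocounts, minimums, scalings, row choices and thresholds.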

Additional observations from a re-analysis of the deposited data

How the results depend on the processing

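No paired analysis was possible because each group has 1 library, and for the same reason no replicate could be left out. The 9 genes gave 2 higher and 6 lower under every setting tried, except 5 lower with a pseudocount of 5 (Plau at -0.95) and 4 lower with a 4-fold threshold. The log2 ratio of F3 ranged over the settings from -5.06 to -3.58, that of F7 from 2.50 to 4.13 and that of F13a1 from -0.14 to 0.41. Counts over all detected genes (2890 higher and 983 lower as reported) moved more. Higher genes numbered 983 with a pseudocount of 5, 950 (with 1564 lower) after rescaling to a median ratio of 0, 5519 at 1.5-fold and 419 (with 463 lower) at 4-fold. Over the 9 lists, higher genes numbered 7 (with 6 lower) after that rescaling, 20 at 1.5-fold and 3 (with 1 lower) at 4-fold. Their pooled median was 0.70 with a pseudocount of 0.1, 0.46 with a pseudocount of 5, 0.019 with no minimum and 0.036 after rescaling to a median ratio of 0. That rescaling also turned the medians of the protease-activated receptors (-0.24), the urokinase receptor partners (-0.57) and plasminogen, tPA and their inhibitors (-0.35). As reported these 3 medians were 0.31, 0.08 and 0.20, below the median of 0.57 that the rescaling set to 0. Why the median of all detected genes lay above 0 was not tested. The low levels of F3 in the RON TK-/- labelled library and of F7 in the WT labelled library rest on about 304 and 208 reads.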

Other observations

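The genes that lie beside the 9 members on the chromosome were read as well, 2 on each side, leaving out clone-like symbols and small RNAs. There were 32 distinct neighbours outside the members and 24 were detected, of which 7 were higher and 3 lower by 2-fold or more in the RON TK-/- labelled library. These are 29.2% and 12.5% of them, beside 25.6% and 8.71% of all detected genes. Relative to the median gene the counts were 2 higher and 4 lower, beside 8.38% and 14.4% of all detected genes. Their balance depended on scaling, as did that of all detected genes. The neighbours named here were named after their values were seen. Cnn3, which encodes the actin-binding protein calponin 3 and lies 265331 bases from F3, had 22.3 FPKM in the RON TK-/- labelled library and 137 FPKM in the WT labelled library, while Abcd3, a peroxisomal transporter gene 23857 bases on the other side of F3, had 33.6 and 20.4 FPKM. Vcl, which encodes the adhesion protein vinculin and lies 86044 bases from Plau, had 23.1 and 64.6 FPKM in the same order, and Camk2g, 42573 bases on the other side of Plau, had 10.9 and 2.56 FPKM.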
